A study of Mus musculus with 6 samples.

Results

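Matrix metalloproteinases were examined in RNA sequencing data from cultured mouse lung fibroblasts. The 10 genes described here were chosen by symbol: Mmp2, Mmp3, Mmp9, Mmp10, Mmp11, Mmp13, Mmp14, Mmp16, Mmp19 and Mmp23. They and the gene lists set beside them were chosen with earlier results of these data known. Counts called among them, set beside shares of all tested genes, are therefore descriptions only. Each symbol matched 1 of the 45706 Ensembl gene identifiers in the table, and the macrophage elastase gene was left out by the rule. The cells were grown from enzyme-digested lungs of wild-type mice. They were left untreated (control, 3 samples) or kept for 24 hours with 30 ng/ml of recombinant mouse DKK1 (DKK1, 3 samples). DKK1 is a secreted inhibitor of Wnt signalling, and no genetic change or other agent was named for either group. The labels number the samples 1 to 3 in each group but do not say whether a number stands for an animal, a culture or a day. The p-values below therefore measure the spread between these samples, which may be technical. Where samples are paired by number, they measure the spread of the differences within those pairs, which may be technical too.

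Matrix metalloproteinases are zinc-dependent proteases that cut collagens, elastin, proteoglycans and other proteins outside the cell. Most are made as inactive proenzymes, in which a cysteine of the propeptide blocks the zinc, and they become active when that propeptide is cut or displaced. Tissue inhibitors of metalloproteinases (TIMPs) bind the active enzymes, and in lung fibroblasts the balance of the enzymes and their inhibitors shapes how the matrix is turned over.

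Library totals ran from 22565917 to 34727102 expected counts, which are read counts per gene as estimated by the RSEM program. Levels are given as counts per 1000000 of the library total (CPM). All 9 fibroblast markers examined were present, with a summed level of 13366 to 15063 CPM in control and 12590 to 14255 CPM in DKK1 libraries. Of these 9, 2 rose and 5 fell in the paired fit described below, and all 4 smooth muscle markers fell (1 without pairing). Of all tested genes, 4.96% rose and 4.46% fell in the paired fit, and 0.198% fell without pairing. The smooth muscle markers summed to 6646 to 7402 CPM in control and 5597 to 6575 CPM in DKK1 libraries. The part of these markers in the results below was not tested. Libraries numbered 3 stood apart in both groups. Their epithelial markers summed to 126 CPM in each group, against 38.0 to 47.4 CPM in the other 4 libraries, and their leukocyte and macrophage markers summed to 899 and 940 CPM against 451 to 539 CPM. Because these are bulk samples, fewer cells of a type and less RNA per cell cannot be told apart. Same-numbered samples deviated together from their group means, so the edgeR test was run in 2 forms. The main fit ignores the replicate number, and the paired fit takes it as a block. Changes are given as log2 differences (log2 fold changes in the plots), the fitted log2 level with DKK1 minus that in control.

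After DKK1, transcripts of the stromelysin Mmp3 were 2.26-fold higher, and this was the single member that passed the threshold without pairing (1 of 10; adjusted p under 0.05). Of all 14635 tested genes, 0.895% passed, 0.697% higher and 0.198% lower. The members' median log2 difference was 0.13, against 0.00 for all tested genes, with 6 members higher and 4 lower. In the paired fit 6 of the 10 members passed. Mmp3, Mmp9, Mmp10, Mmp13 and Mmp19 rose and Mmp14 fell, where 9.42% of all tested genes passed, 4.96% higher and 4.46% lower. Mmp2, Mmp11, Mmp16 and Mmp23 passed in neither fit. Levels of the groups did not overlap for 3 of the 10 members, Mmp3, Mmp14 and Mmp19, against 16.5% of all tested genes (9.4% higher and 7.14% lower). In 7 of the 10 members all 3 same-numbered pairs moved one way, 5 higher and 2 lower, against 41.7% of all tested genes (22.2% higher and 19.5% lower).

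**Figure D1:**
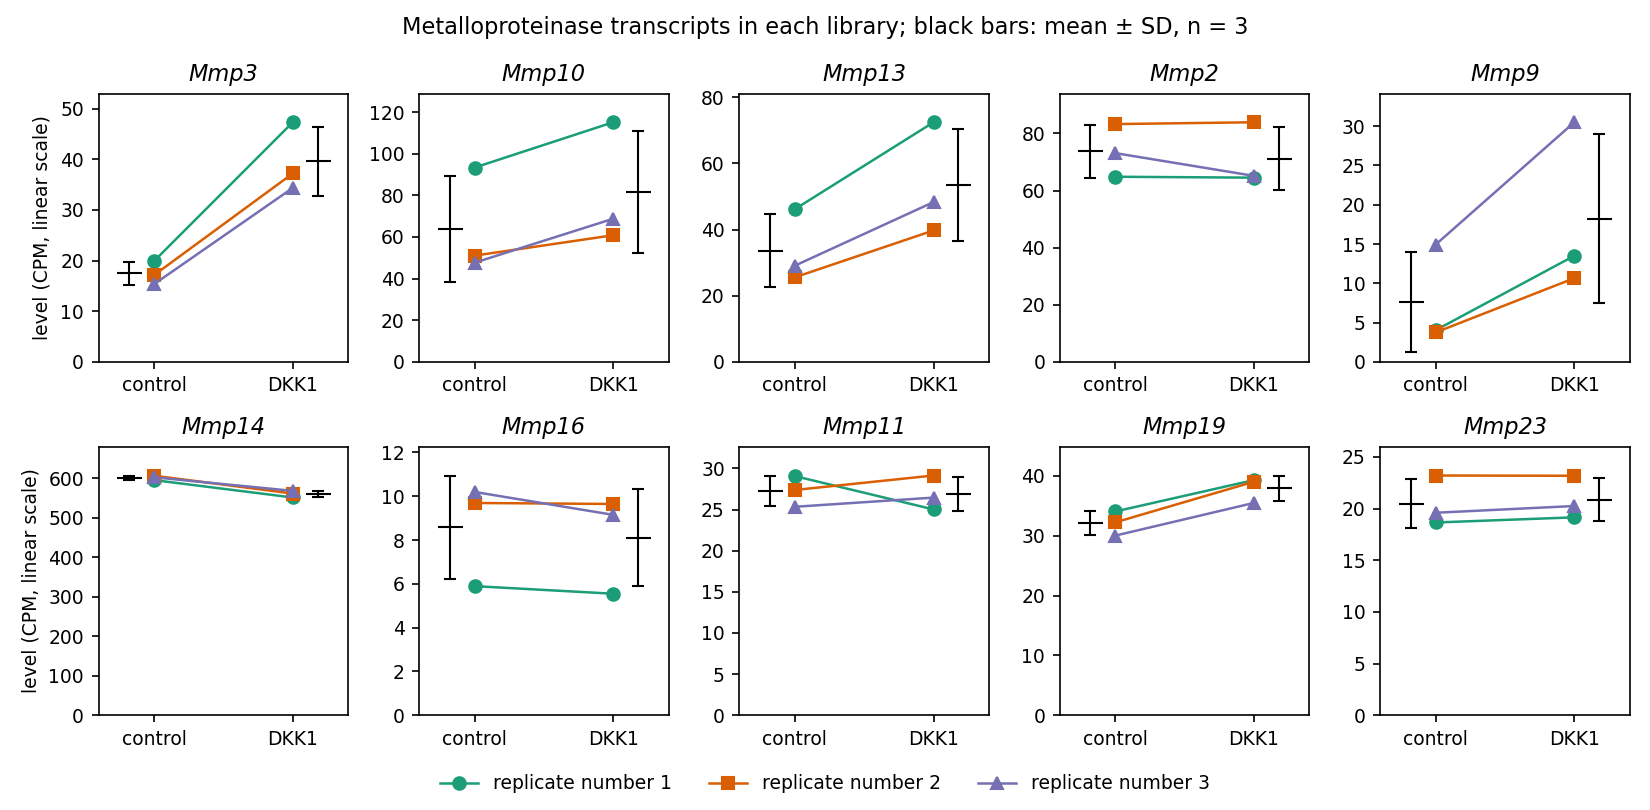
Level of each metalloproteinase in each library (vertical axes, CPM on a linear scale from 0), with lines joining control and DKK1 libraries that carry the same replicate number; black bars give the mean and SD of 3 libraries. Mmp3 runs from 15.3 to 19.9 CPM in control and from 34.3 to 47.3 CPM in DKK1 libraries, while Mmp9 is highest in the libraries numbered 3 of both groups.

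**Figure D2:**
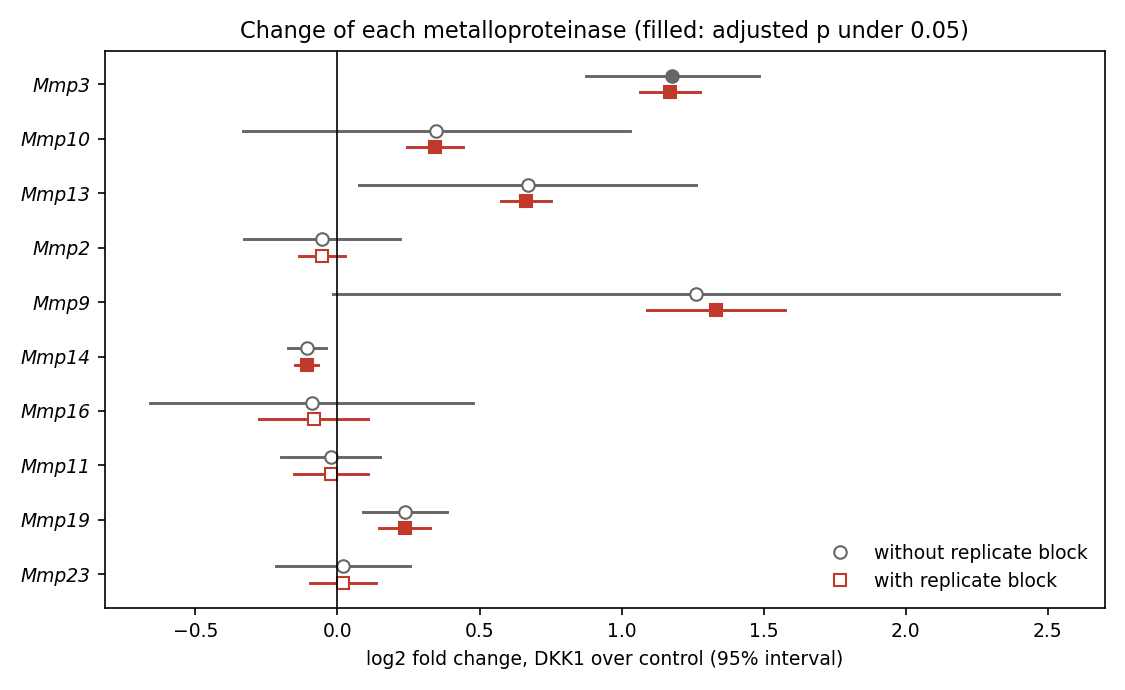
Log2 difference of each member, DKK1 minus control (horizontal axis), with its 95% interval, from the fits without (grey circles) and with (red squares) the replicate block; filled symbols passed an adjusted p of 0.05. Mmp3 is filled in both fits, and Mmp9, Mmp10, Mmp13, Mmp14 and Mmp19 are filled in the paired fit.

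In control cells the members differed widely in level. To compare genes, CPM was divided by the length of the longest transcript, which gives CPM per kilobase. This length was chosen after the data were seen, in place of the mean transcript length planned at first. Mmp14, the membrane-anchored collagenase MT1-MMP, was the highest at 232 ± 2.16 CPM per kilobase (SD, n = 3), or 508 with the mean and 101 with the merged exon length. It was followed by Mmp10 at 37.2 ± 14.8 and Mmp2 at 24.0 ± 3.00 CPM per kilobase, and the ranges of these 3 genes did not overlap in control libraries. Mmp23 (14.3 ± 1.68), Mmp13 (12.6 ± 4.12) and Mmp11 (11.9 ± 0.817 CPM per kilobase) came next, and Mmp13 overlapped both of its neighbours in this order. Mmp3 at 9.69 ± 1.28 and Mmp19 at 9.44 ± 0.594 CPM per kilobase overlapped each other. Mmp9 at 2.38 ± 2.01 and Mmp16 at 1.71 ± 0.470 CPM per kilobase were the lowest and also overlapped. The first 3 and the last 2 places were the same with the mean transcript length or the merged exon length, while the order between them changed.

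Mmp3, Mmp10 and Mmp13 lie close together on mouse chromosome 9. Mmp3 encodes stromelysin-1, which cuts proteoglycans, laminin and fibronectin and activates other proenzymes, and Mmp10 encodes the related stromelysin-2. Mmp13 encodes collagenase-3, which cleaves fibrillar collagen. The 250 bases before the RefSeq start site of each are printed because these 3 neighbours rose together in the paired fit, and that of Mmp14 because it fell. They are from RefSeq (GRCm38.p6) and read along the gene's own strand, the plus strand in each case: chr9:7445572-7445821 for Mmp3, chr9:7502092-7502341 for Mmp10, chr9:7272264-7272513 for Mmp13 and chr14:54431348-54431597 for Mmp14. Capitals mark matches to TGANTCA (the AP-1 motif, which reads the same on both strands) and to TATAAA (the TATA box, searched on both strands).
Mmp3: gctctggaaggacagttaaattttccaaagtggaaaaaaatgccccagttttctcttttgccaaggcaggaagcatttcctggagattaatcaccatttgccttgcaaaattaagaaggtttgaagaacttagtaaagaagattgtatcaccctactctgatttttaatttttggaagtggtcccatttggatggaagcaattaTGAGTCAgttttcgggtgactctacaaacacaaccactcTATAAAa
Mmp10: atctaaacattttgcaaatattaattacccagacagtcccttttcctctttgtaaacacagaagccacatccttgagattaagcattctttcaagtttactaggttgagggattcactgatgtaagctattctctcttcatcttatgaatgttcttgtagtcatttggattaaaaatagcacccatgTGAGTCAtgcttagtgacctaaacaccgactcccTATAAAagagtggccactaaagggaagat
Mmp13: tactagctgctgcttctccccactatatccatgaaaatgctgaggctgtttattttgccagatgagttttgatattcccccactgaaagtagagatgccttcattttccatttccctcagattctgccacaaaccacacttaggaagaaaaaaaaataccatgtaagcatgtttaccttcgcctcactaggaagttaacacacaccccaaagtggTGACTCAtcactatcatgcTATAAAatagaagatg
Mmp14: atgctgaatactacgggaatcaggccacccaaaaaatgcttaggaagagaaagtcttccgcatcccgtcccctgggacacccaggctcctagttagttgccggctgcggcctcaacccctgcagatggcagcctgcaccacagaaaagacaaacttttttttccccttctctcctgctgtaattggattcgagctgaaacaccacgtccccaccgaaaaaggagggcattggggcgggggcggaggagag

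All 3 members of the chromosome 9 group held an AP-1 match and a TATA box match in this window. The AP-1 match was TGAGTCA at 40 to 46 bases before the start site of Mmp3 and at 57 to 63 bases before that of Mmp10, and TGACTCA at 29 to 35 bases before that of Mmp13. AP-1, a dimer of Fos and Jun family proteins, is known to bind this motif. TATAAA lay at 2 to 7 bases before the start site of Mmp3, at 24 to 29 for Mmp10 and at 11 to 16 for Mmp13. All these distances are from the RefSeq start sites, whose placement was not tested. Of 32851 RefSeq promoter windows of the same length, 6.75% held TGANTCA and 12.4% held TATAAA on either strand. The 3 members elsewhere with an entry, Mmp11, Mmp14 and Mmp23, held neither. Among the other metalloproteinase genes of the chromosome 9 group, 4 of 6 held an AP-1 match: Mmp1a, Mmp1b, Mmp7 and Mmp20. Mmp8 and Mmp27 did not. The C/EBP motif TTNNGNAA was found in Mmp3 and Mmp10 and in 36.8% of all windows, and the NF-kB motif was found in none of the 6 members with an entry and in 3.9% of all windows. No match in the 4 printed windows overlapped a match to another motif. A match describes letters and does not show binding. Mmp2, Mmp9, Mmp16 and Mmp19 had no entry.

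Mmp3 (ENSMUSG00000043613, chromosome 9, 7445822 to 7455975, GRCm38) stood at 19.9, 17.1 and 15.3 CPM in control samples 1 to 3. In DKK1 samples 1 to 3 it stood at 47.3, 37.2 and 34.3 CPM. Every DKK1 library was above every control library, and the ratio within same-numbered pairs was 2.17 to 2.38. The mean was 17.5 ± 2.30 CPM without and 39.6 ± 6.81 CPM with DKK1 (SD, n = 3 each). The log2 difference was 1.18 (SE 0.13, edgeR adjusted p = 0.00742; paired fit 1.17, SE 0.05, adjusted p = 1.25e-08). Without control sample 2 the edgeR adjusted p was 0.0538, at a log2 difference of 1.17.

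Mmp10 (ENSMUSG00000047562, chromosome 9, 7502352 to 7510240) was measured at 93.3, 51.0 and 47.6 CPM in control samples 1 to 3 and at 115, 60.8 and 68.8 CPM in the DKK1 samples. Samples numbered 1 were the highest of their groups, and the groups overlapped. Each DKK1 library exceeded its same-numbered control, by ratios of 1.19 to 1.44. The log2 difference was 0.35 (SE 0.30, edgeR adjusted p = 0.76), and in the paired fit 0.34 (SE 0.05, adjusted p = 0.000204). Expected counts of Mmp3 and Mmp10 were not whole in any library. Of the 50-base stretches in the Mmp3 transcript, 8.39% also occurred in another gene's transcript, nearly all of them in Mmp10, and 8.37% of those of Mmp10 occurred in Mmp3, so part of the reads was divided between the 2 genes by estimate.

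Mmp13 (ENSMUSG00000050578, chromosome 9, 7272514 to 7283331) stood at 46.2, 25.6 and 29.1 CPM in control and at 72.4, 39.7 and 48.3 CPM in DKK1 samples 1 to 3. Sample 1 was again the highest of each group and the groups overlapped, but each pair rose by a similar ratio, 1.55 to 1.66. The log2 difference was 0.67 (SE 0.26, 95% interval 0.08 to 1.26, edgeR adjusted p = 0.385), and in the paired fit 0.66 (SE 0.04, adjusted p = 2.51e-07). Its expected counts were whole in all 6 libraries.

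Around these members, chromosome 9 carries other metalloproteinase genes. The 9 listed family genes there span 427 kb, and 6 were expressed enough to test. Without pairing 1 of those 6 passed, Mmp3, against 0.895% of all tested genes. In the paired fit 4 of the 6 rose, Mmp13, Mmp3, Mmp10 and Mmp8, and 0 fell, against 4.96% of all tested genes higher and 4.46% lower. Mmp8, known as the neutrophil collagenase, stood at 48.9, 37.1 and 32.7 CPM in control and 92.8, 63.8 and 62.0 CPM in DKK1 samples. The groups of Mmp8 did not overlap. Its log2 difference was 0.88 (SE 0.18, edgeR adjusted p = 0.0869; paired fit 0.87, SE 0.04, adjusted p = 2.62e-08). Mmp1b and Mmp27 had at most 22 and 29 counts in a library and were not called (paired log2 differences of 0.51, SE 0.38, and 0.51, SE 0.35), so a change of that size was not detectable at this depth. Mmp1a, Mmp7 and Mmp20 had at most 1 count. Mmp10, between Mmp3 and Mmp8 in position, had the smallest log2 difference of these 4.

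Of the 8 protein-coding neighbours within 500 kb of the ends of this group, all were tested. In the paired fit 1 of these 8 passed, where 9.42% of all tested genes did. Birc2, an inhibitor of apoptosis, had a log2 difference of 0.19 (SE 0.05, edgeR paired adjusted p = 0.0276; 0.276 without pairing). Dcun1d5, the nearest tested neighbour on one side, had 0.09 (SE 0.04, adjusted p = 0.146) and Tmem123 on the other had -0.01 (SE 0.02, adjusted p = 0.81). Of the 11 tested family genes outside chromosome 9, 2 were higher and 2 lower in the paired fit, against 4.96% and 4.46% of all tested genes. Without pairing the median log2 difference of these 11 was -0.02, against 0.60 for the 6 tested on chromosome 9. The difference between these sets was not tested.

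**Figure D3:**
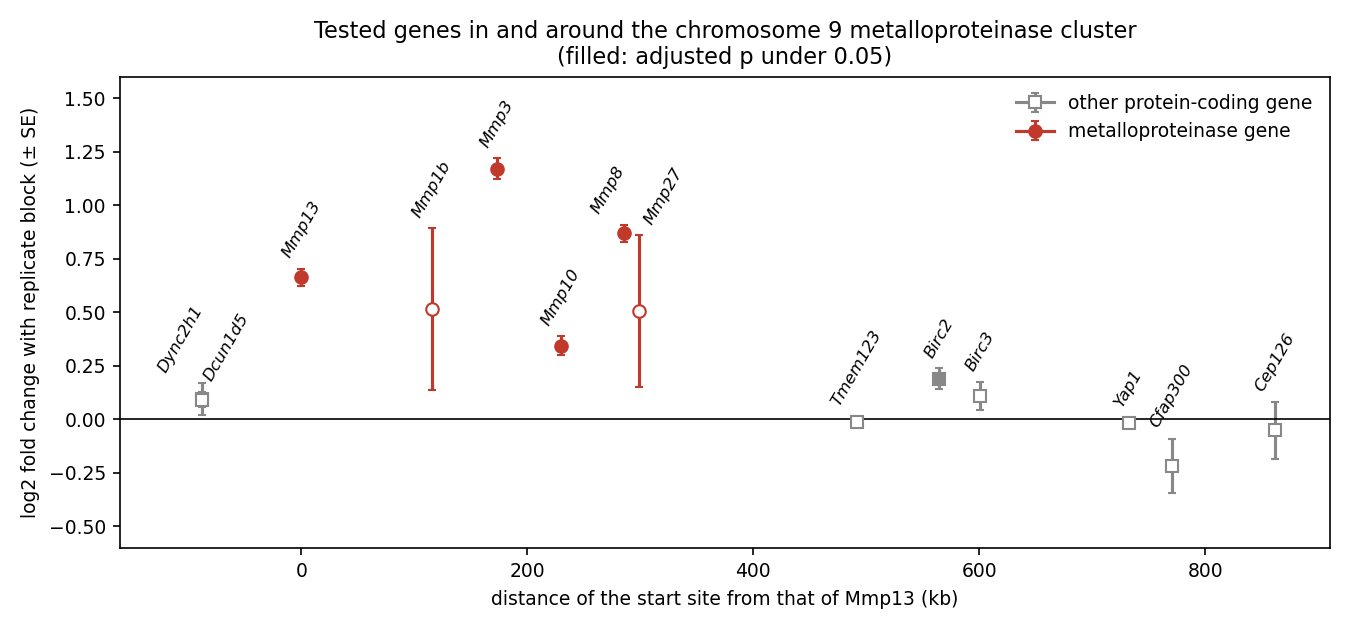
Log2 fold change in the paired fit with its SE (vertical axis) of the tested genes in and around the chromosome 9 metalloproteinase group, against the distance of each start site from that of Mmp13 in kb; red circles are metalloproteinase genes, grey squares other protein-coding genes, and filled symbols passed an adjusted p of 0.05. Mmp3 is the highest at 1.17 and Mmp10, Mmp13 and Mmp8 lie between 0.34 and 0.87, while the neighbours lie between -0.22 and 0.19; the symbols of Dync2h1 and Dcun1d5 coincide.

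The gelatinases Mmp2 and Mmp9 cleave denatured collagen and basement membrane collagen. Mmp2 (ENSMUSG00000031740, chromosome 8, 92827291 to 92853420), which is made mainly by mesenchymal cells, stood at 64.8, 83.3 and 73.1 CPM in control and at 64.5, 83.9 and 65.1 CPM in DKK1 samples 1 to 3. The groups overlapped fully, and sample 2 was the highest in each. The log2 difference was -0.05 (95% interval -0.33 to 0.22, edgeR adjusted p = 0.936), and in the paired fit the interval was -0.14 to 0.03 (adjusted p = 0.476).

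Mmp9 (ENSMUSG00000017737, chromosome 2, 164940780 to 164955850), known as a product of macrophages and neutrophils as well as of stromal cells, stood at 4.03, 3.75 and 14.9 CPM in control samples 1 to 3. In DKK1 samples it stood at 13.5, 10.7 and 30.5 CPM. Sample 3 was the highest of each group, and control sample 3 exceeded DKK1 samples 1 and 2. Within pairs the ratios were 3.35, 2.84 and 2.04. The log2 difference of 1.26 was did not pass without pairing (SE 0.56, edgeR adjusted p = 0.481). In the paired fit Mmp9 rose, by 1.33 (SE 0.11, adjusted p = 4.93e-06). Over the samples numbered 1 and 2 alone, an alternative added after the data were seen, it was 1.63 and passed without pairing (adjusted p = 0.00821; 1.61 and 2.25e-05 in the paired fit). Leaving out control sample 3 alone gave 2.19 and leaving out DKK1 sample 3 alone gave 0.69, neither called.

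Leukocyte transcripts, taken as a sum, were like Mmp9 highest in sample 3 of each group. The summed level of 13 leukocyte and macrophage markers, all present, was 451, 517 and 899 CPM in control and 499, 539 and 940 CPM in DKK1 samples 1 to 3. From sample 1 to sample 2 this sum went up and Mmp9 went down in both groups, but the control step of Mmp9 rested on 91 and 106 counts. Which cells made Mmp9 was not measured. Single markers went both ways from sample 1 to sample 2: with DKK1, Marco went from 16.5 to 14.5 CPM and Adgre1 from 6.21 to 7.83 CPM. Epithelial, endothelial and mesothelial sums were also highest in sample 3, the endothelial one at 65.6 CPM in control against 22.1 to 24.9 CPM in samples 1 and 2, and the mesothelial one at 28.1 against 9.73 to 10.9 CPM. Ratios of the leukocyte sum within pairs were 1.04 to 1.11, but the lysozyme gene Lyz2 made up most of it, with 340 of 451 CPM in control sample 1 and 696 of 899 CPM in control sample 3. Cd14, a receptor for bacterial lipopolysaccharide, was the single marker of this list to rise without pairing (log2 difference 0.85, edgeR adjusted p = 0.0028). Unlike the sum, Cd14 was highest in sample 1 of the DKK1 group, at 17.8, 15.5 and 17.3 CPM in samples 1 to 3. Single markers went both ways in the paired fit: 4 rose and 4 fell, where 4.96% of all tested genes rose and 4.46% fell. Marco, a scavenger receptor, had a log2 difference of 1.67 (edgeR adjusted p = 2.51e-07) and Itgam had 1.07 (adjusted p = 7.23e-08). C1qb, a complement subunit, had -1.46 (adjusted p = 1.61e-05) and C1qa had -1.33 (adjusted p = 0.000141). Each of these genes was, like Mmp9, highest in sample 3 of both groups. Ptprc, the pan-leukocyte gene, was not called (-0.15, adjusted p = 0.373). Of 9 neutrophil markers, Ly6g, Elane and Retnlg were at 0 in all libraries, and the list summed to 1.06 to 1.77 CPM in control and 2.79 to 4.21 CPM in DKK1 samples. S100a8 made up most of this sum, at 0.798 to 1.68 CPM in control and 2.56 to 4.03 CPM in DKK1 samples, and rose in the paired fit (edgeR adjusted p = 0.000308). Within pairs 1 to 3 the ratios of the neutrophil sum were 3.39, 2.47 and 2.38, where S100a8 had 18 to 93 counts per library. The part of these cells in the Mmp9, Mmp8 and other results was not tested.

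**Figure D4:**
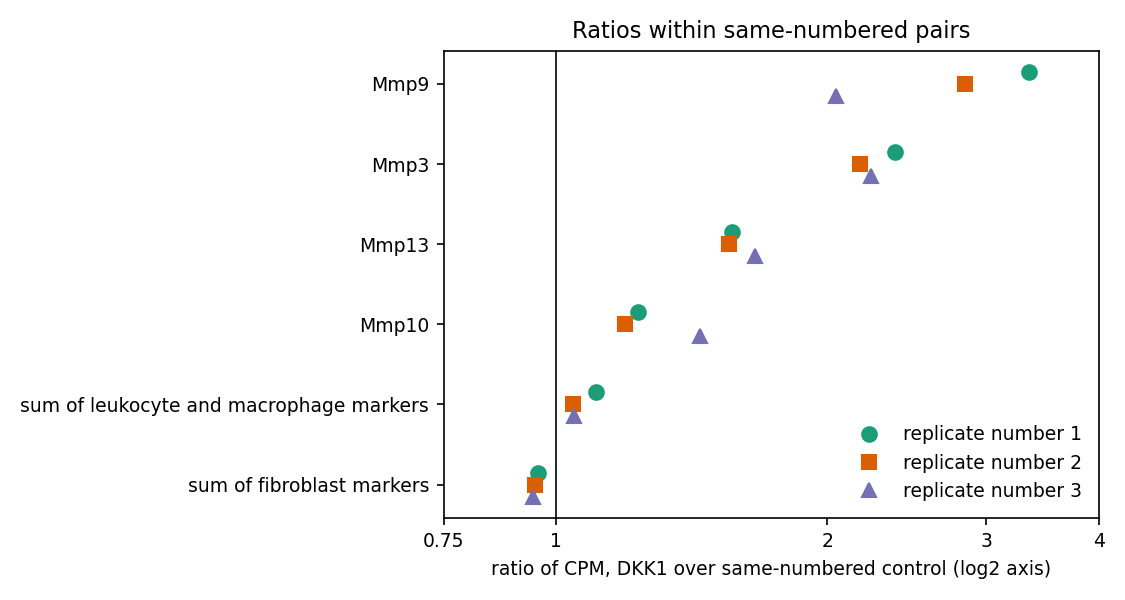
Ratio of CPM, DKK1 over the control of the same replicate number (horizontal log2 axis), for 4 members and for the summed leukocyte and macrophage and fibroblast markers; each symbol is 1 pair. The ratios of Mmp9 lie between 2.04 and 3.35 and those of the leukocyte and macrophage sum between 1.04 and 1.11. Most of the leukocyte and macrophage sum is Lyz2. Single markers of that list, of which 4 rose and 4 fell in the paired fit, are not plotted. The neutrophil marker sum, with ratios of 2.38 to 3.39, is not plotted.

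Mmp14 and Mmp16 encode membrane-type metalloproteinases. Mmp14 (ENSMUSG00000000957, chromosome 14, 54431612 to 54445364) cuts fibrillar collagen at the cell surface and activates the Mmp2 proenzyme. It stood at 595, 607 and 603 CPM in control and at 551, 561 and 568 CPM in DKK1 samples 1 to 3. Every DKK1 library was below every control library, with ratios within pairs of 0.926 to 0.943. The log2 difference was -0.11 (SE 0.03, edgeR unadjusted p = 0.00536, adjusted p = 0.191), and in the paired fit it fell by 0.11 (SE 0.02, adjusted p = 0.00195). The fitted change was -7.19%, and the gene is the most deeply counted member, with 13102 to 19497 counts per library.

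Mmp16 (ENSMUSG00000028226, chromosome 4, 17852893 to 18119145) was low, at 5.89, 9.69 and 10.2 CPM in control and 5.55, 9.65 and 9.15 CPM in DKK1 samples. Sample 1 was the lowest in each group, which is the reverse of Mmp10 and Mmp13. Its log2 difference was -0.09 (95% interval -0.66 to 0.48, edgeR adjusted p = 0.953), and in the paired fit the interval was -0.28 to 0.11 (adjusted p = 0.665). Among other family members fixed for comparison, Mmp17, a membrane-type enzyme held by a lipid anchor, stood at 28.1, 28.6 and 30.6 CPM in control and 23.3, 23.7 and 25.2 CPM in DKK1 samples. Its groups did not overlap, and its ratios within pairs were 0.825 to 0.828. Mmp17 had a log2 difference of -0.28 (SE 0.05, edgeR adjusted p = 0.0655) and fell in the paired fit (adjusted p = 0.00137), but DESeq2 with the replicate block did not call it (adjusted p = 0.124). Of these 12 other family genes 7 were tested. Without pairing 0 passed, where 3 had an unadjusted p under 0.05, while DESeq2 called 0 and a fit with no low-count filter called 2. In the paired fit 2 passed, Mmp8 higher and Mmp17 lower, against 9.42% of all tested genes (4.96% higher and 4.46% lower).

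Mmp11, Mmp19 and Mmp23 complete the members. Mmp19 (ENSMUSG00000025355, chromosome 10, 128790910 to 128800824) encodes a secreted enzyme that cuts basement membrane proteins. It stood at 34.1, 32.2 and 30.0 CPM in control and at 39.3, 39.0 and 35.5 CPM in DKK1 samples 1 to 3. Its groups did not overlap and its ratios within pairs were 1.15 to 1.21. The log2 difference was 0.24 (SE 0.06, edgeR unadjusted p = 0.0057, adjusted p = 0.195; paired fit 0.24, SE 0.04, adjusted p = 0.00233). DESeq2 with the replicate block did not call it (adjusted p = 0.172). RSEM gave it fractional counts in every library, and it overlaps Tmem198b and Gm47093 on the opposite strand. The strandedness of the counting was not given in the sources used here.

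Mmp11 (ENSMUSG00000000901, chromosome 10, 75923222 to 75936496), stromelysin-3, is activated inside the cell by furin. It stood at 29.1, 27.4 and 25.3 CPM in control and 25.0, 29.1 and 26.5 CPM in DKK1 samples, with overlapping groups and pairs that moved both ways. Its log2 difference was -0.02 (95% interval -0.20 to 0.15, edgeR adjusted p = 0.96; paired interval -0.15 to 0.11, adjusted p = 0.886). Mmp23 (ENSMUSG00000029061, chromosome 4, 155650655 to 155653384) encodes a small enzyme that is first anchored in the membrane. It stood at 18.7, 23.2 and 19.6 CPM in control and 19.2, 23.2 and 20.3 CPM in DKK1 samples, and its groups overlapped. Its log2 difference was 0.02 (95% interval -0.22 to 0.26, edgeR adjusted p = 0.978; paired interval -0.09 to 0.13, adjusted p = 0.891). Mmp11 overlaps Chchd10 on the opposite strand.

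The members were also added up per kilobase of the longest transcript, with no test. Their sum was 371, 350 and 343 CPM per kilobase in control and 395, 360 and 365 CPM per kilobase in DKK1 samples 1 to 3, higher with DKK1 in each pair, while the groups overlapped. With mean transcript lengths the sum was nearly the same in both groups, 667, 653 and 647 against 674, 646 and 661 CPM per kilobase, and lower with DKK1 in pair 2. Mmp14 made up 65.4% ± 3.13 of the sum in control and 58.0% ± 3.60 in DKK1 samples (SD, n = 3 each). Mmp3, Mmp10 and Mmp13 together made up 16.6% ± 4.86 and 23.8% ± 5.84, and Mmp3 alone 2.73% ± 0.248 and 5.87% ± 0.721. The shares depend on the length used: with merged exon lengths Mmp14 made up 47.6% and 39.4%, and with mean transcript lengths 77.4% and 71.7%, lower with DKK1 in each case.

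**Figure D5:**
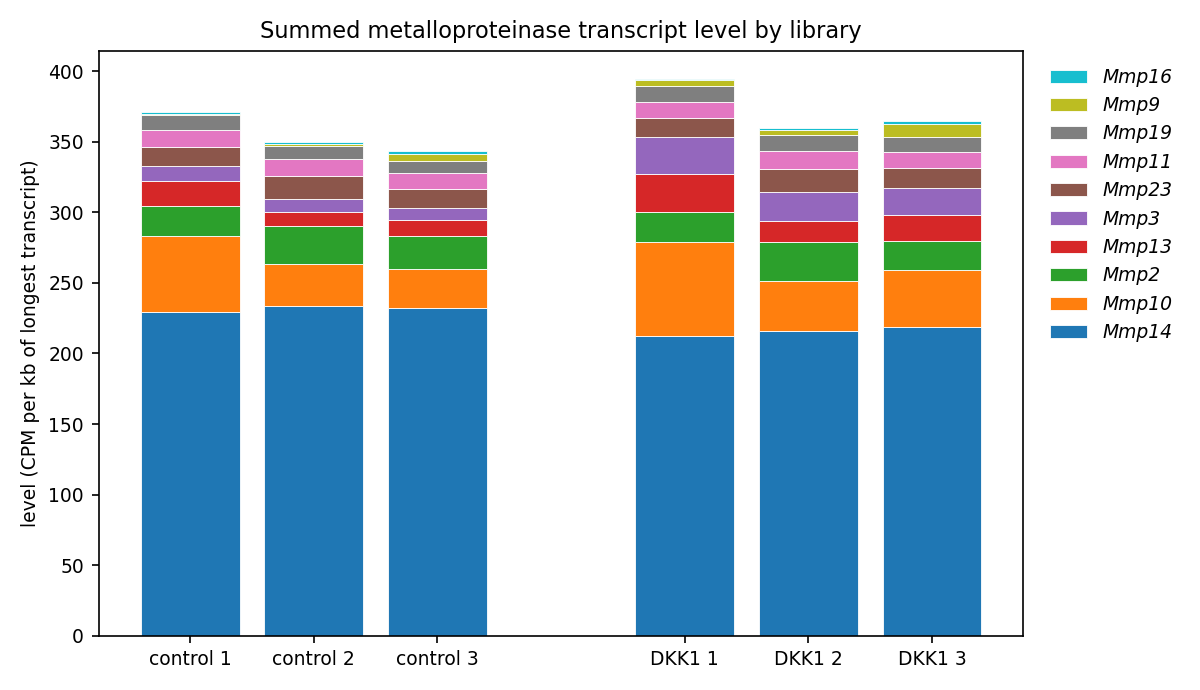
Summed level of the 10 members in each library (vertical axis, CPM per kb of the longest transcript), divided by gene; each bar is 1 library. Mmp14 is the largest part of every bar, and the sum runs from 343 to 371 in control and from 360 to 395 in DKK1 libraries.

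Of the 6 listed inhibitors 4 were tested, and 2 passed without pairing, against 0.895% of all tested genes. In the paired fit 3 passed, 1 higher and 2 lower, against 9.42% of all tested genes (4.96% higher and 4.46% lower). Timp1, which inhibits most secreted metalloproteinases, stood at 342, 367 and 358 CPM in control and 429, 472 and 451 CPM in DKK1 samples 1 to 3. Every DKK1 library was above every control library, and the log2 difference was 0.34 (SE 0.05, edgeR adjusted p = 0.0145; paired fit adjusted p = 1.93e-07). Timp3, which binds to the matrix, went the other way, with 687, 681 and 670 CPM in control and 568, 594 and 592 CPM in DKK1 samples. The groups did not overlap, and Timp3 fell by 0.22 on the log2 scale (SE 0.03, edgeR adjusted p = 0.02; paired fit adjusted p = 1.61e-05). Timp2, which links the Mmp2 proenzyme to MT1-MMP, stood at 829, 915 and 776 CPM in control and 692, 837 and 730 CPM in DKK1 samples. Its groups overlapped, each pair was lower with DKK1, and it passed in the paired fit only (log2 difference -0.16, SE 0.03, adjusted p = 0.00138; 0.554 without pairing). Leaving out 1 library ended the call of Timp1 for DKK1 sample 2 (adjusted p = 0.054), control sample 1 (0.0752) and control sample 2 (0.0521). That of Timp3 ended for samples 1 and 2 of either group (adjusted p from 0.0653 to 0.11), with no change of direction. Reck, a membrane-anchored inhibitor, had a log2 difference of -0.10 (edgeR adjusted p = 0.757; 0.243 in the paired fit). Timp4 and A2m stood at 0.133 ± 0.117 and 0.203 ± 0.111 CPM in control samples and were not tested. Per kilobase, Timp1 stood at 403 ± 14.4 in control and 510 ± 24.4 CPM in DKK1 samples, per kilobase of the longest transcript. That was above the summed members in each library, whereas with mean transcript lengths Timp1 (414 and 525 on average) was below their sum (656 and 660). Timp1 overlaps Syn1 and Timp3 overlaps Syn3 on the opposite strand.

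Genes that activate, dock or clear metalloproteinases mostly did not pass: of 20 tested, 0 were called without pairing, where 4 had an unadjusted p under 0.05 and DESeq2 called 1. With pairing 5 rose and 1 fell, where 9.42% of all tested genes passed (4.96% higher, 4.46% lower). Plau, the urokinase that starts the plasmin cascade, went from 146 ± 11.2 to 175 ± 18.1 CPM with DKK1 (SD, n = 3 each), with a paired log2 difference of 0.25 (SE 0.03, edgeR adjusted p = 2.43e-05). The proprotein convertase gene Pcsk5 had 0.78 (SE 0.09, adjusted p = 0.000105) and Itga2, the collagen-binding integrin subunit, 0.40 (SE 0.04, adjusted p = 3.34e-05). Sdc1, a heparan sulfate proteoglycan of the cell surface, and Serpine2, a protease inhibitor, rose by 0.13 (adjusted p = 0.0113) and 0.14 (adjusted p = 0.0122). Pcsk6 fell by 0.15 (adjusted p = 0.0499) and was not called over samples 1 and 2 alone or with the trend against GC content and length removed. DESeq2 with the replicate block called none of Sdc1, Serpine2 and Pcsk6 (adjusted p = 0.327, 0.308 and 0.611). Furin had a paired log2 difference of -0.02 (adjusted p = 0.746).

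Among 23 transcription factors listed for their known action on metalloproteinase promoters, all were tested and 2 passed without pairing. Of all tested genes, 0.895% passed in that fit. Junb, an AP-1 subunit, stood at 163, 181 and 176 CPM in control and 219, 249 and 226 CPM in DKK1 samples 1 to 3. Its groups did not overlap, and its log2 difference was 0.41 (SE 0.06, edgeR adjusted p = 0.02; paired fit adjusted p = 2.22e-07). Hif1a, a factor of the response to low oxygen, rose by 0.34 on the log2 scale (SE 0.03, edgeR adjusted p = 0.00387), though its counts were fractional in every library. Hif1a stayed called without any 1 library (adjusted p up to 0.0297), whereas Junb did so only without DKK1 sample 3 (adjusted p from 0.0502 to 0.0864 for the other 5 libraries). With pairing 8 rose and 0 fell, against 4.96% of all tested genes higher and 4.46% lower. Fos, another AP-1 subunit, was at 23.9, 31.9 and 26.8 CPM in control and 42.3, 56.1 and 39.3 CPM in DKK1 samples. Its paired log2 difference was 0.73 (SE 0.05, edgeR adjusted p = 1.07e-06, and 0.0743 without pairing). Cebpd, Cebpb and Ets2 also rose in the paired fit, by 0.48, 0.40 and 0.26 on the log2 scale, with edgeR adjusted p values of 6.60e-07, 0.000297 and 0.000699. Fosl2, an AP-1 subunit, averaged 333 CPM in control and 368 CPM in DKK1 samples, and its groups did not overlap. It rose by 0.14 in the paired fit (SE 0.02, edgeR adjusted p = 0.00145, and 0.27 without pairing). Nfkb1 rose by 0.20 (adjusted p = 0.00188, and 0.105 without pairing). Jun and Jund, with -0.04 each, were not called in either fit (paired adjusted p = 0.505 and 0.536), nor was Fosl1 at 0.11 (paired adjusted p = 0.158). Whether these factors act on the members was not measured.

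The genes whose pattern was most like that of Mmp3 were sought among the 13007 tested genes that averaged 1 CPM or more. Likeness was the root mean square difference of log2 CPM over the 6 libraries after each gene's own mean was subtracted, where 0 means the same pattern. The nearest were the chemokine genes Ccl7, at 0.103, and Ccl2, at 0.128, followed by the transcript Gm26809 at 0.167. Ccl7 stood at 15.7, 12.2 and 12.8 CPM in control and 39.4, 29.8 and 31.0 CPM in DKK1 samples 1 to 3. Like Mmp3 it was highest in sample 1 of each group. Mmp8 was the next in order, at 0.173, and Mmp13 was 57th at 0.349. This is a description over 6 libraries, and genes that change with the treatment by a similar amount come close by construction.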

How the data were processed

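The authors deposited expected counts per gene, made with RSEM and not scaled, going by the file's name and its identifier columns. STAR, RSEM, edgeR 4.2.1 and the GRCm38 (mm10) build are named, per the submitters' processing notes, while the annotation release, strandedness and filters are not given in the sources used here. Symbols were found for 45143 of the 45706 identifiers (98.8%). Positions, lengths and overlaps came from GENCODE M21 (GRCm38), and promoter windows from RefSeq (GRCm38.p6), with an entry for 6 of the 10 members.

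Expected counts were rounded and genes filtered with filterByExpr (minimum count 10), leaving 14635. Libraries were scaled by TMM and tested with the edgeR 4.0.16 quasi-likelihood test (R 4.3.3, two-sided, Benjamini-Hochberg adjustment over all tested genes, called at an adjusted p under 0.05). The SE of a log2 difference was its size over the root of its F statistic. The script was tested on simulated data that held no effect of the replicate number, so the pairing itself was not simulated. Alternatives included DESeq2 1.42.0 and limma-voom (limma 3.58.1). A floor of 3 counts equals 0.0864 to 0.133 CPM, and covers counting error only.

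Replicate numbers come from the sample titles. After group means were removed, samples sharing a number correlated across genes at 0.335 to 0.498, so the numbers were taken to pair the samples. Replicates of a group differed beyond sampling noise (chi-square per degree of freedom 5.16 to 8.18). The members and gene lists were chosen with earlier results of these data known. All members and inhibitors are named; of the other lists, up to 6 genes called in either fit, by smallest paired adjusted p, and others named were chosen after their values were seen. Of the listed genes, Klkb1 was not analysed here.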

Additional observations from a re-analysis of the deposited data

How the results depend on the processing

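The replicate block called 1379 genes in place of 131, 6 members in place of 1, 2 other metalloproteinases in place of 0, 6 activation, docking and clearance genes in place of 0 and 8 transcription factors in place of 2, while inhibitors went from 2 to 3, and 52.6% of all called genes were higher with it against 77.9% without. With the block, removing the GC content and length trend gave 1392 genes, 6 members, 2 other metalloproteinases, 5 activation, docking and clearance genes and 8 factors. With the block over samples 1 and 2 alone the counts were 1059, 6, 2, 5 and 8, and in DESeq2 with the block 551, 5, 1, 3 and 8. Samples 1 and 2 without the block called 2 members, 1 inhibitor in place of 2 and 1 factor. The DESeq2 test called 289 genes, 1 activation, docking and clearance gene and 5 factors, and a fit with no low-count filter 329, 2 and 6 (and 2 other metalloproteinases). A minimum of 2-fold left 21 genes, 0 inhibitors and 0 factors, and with the block 77 genes, 2 members, 0 inhibitors and 0 factors. The cause of these differences was not tested.

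Leaving out 1 sample gave 36 to 139 calls over all genes, 0 to 1 member, 0 to 2 inhibitors, 0 to 1 activation, docking and clearance gene and 1 to 3 factors. Across these 6 fits log2 fold changes ran from -0.197 to 0.047 for Mmp2, -0.0937 to 0.0251 for Mmp11, -0.296 to 0.121 for Mmp16 and -0.0705 to 0.126 for Mmp23, so the sign of these 4 uncalled members changed. Mmp10 ran from 0.0118 to 0.719, Mmp13 from 0.384 to 0.965 and Mmp9 from 0.69 to 2.19, none called. Mmp3 was called in 18 of its 19 alternatives (1.03 to 1.28). In the 4 fits with the block other than the DESeq2 one for Mmp19, the 6 called members stayed called. No scaling moved the median of all genes by more than 0.01 on the log2 scale, and the TMM factors lay between 0.9935 and 1.006.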
